A study of Mus musculus with 12 samples.

Results

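Vimentin and the classical transcription factors of epithelial to mesenchymal transition were followed in sorted cells of mouse colon adenomas, together with Rbms3, an RNA-binding protein. The members were chosen by gene symbol (Vim, Zeb1, Zeb2, Snai1, Snai2, Twist1, Twist2 and Rbms3) with earlier results on these same 12 arrays known, so every difference given for them is a description of these arrays and no independent test. The 8 genes had 18 probe sets among the 45141 of the Affymetrix mouse array, namely 3 for Vim, 3 for Zeb1, 4 for Zeb2, 1 each for Snai1, Snai2, Twist1 and Twist2, and 4 for Rbms3. Adenoma cells of 3 mice had been sorted on both Mex3a and Lgr5. That gave the double-positive population Mex3a+ Lgr5+, the single-positive Mex3a+ Lgr5- and Mex3a- Lgr5+, and the double-negative Mex3a- Lgr5-, with 1 array per population and mouse. Mex3a is an RNA-binding protein and Lgr5 is the R-spondin receptor that marks crypt base stem cells. All mice (MKL347, MKL358 and MKL367) carried the label ki/+, which the labels do not explain, and no label says by which allele, reporter or antibody the cells were sorted or gives age or strain. Each replicate pooled different adenomas of 1 mouse, and the pools held 500 cells for MKL358 and 2000 cells for MKL347 and MKL367. Since these are bulk samples, fewer cells of a type and less RNA per cell cannot be told apart.

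Vimentin is the intermediate filament protein of mesenchymal cells and leukocytes, and a healthy intestinal epithelium holds little of it. In epithelial to mesenchymal transition, Zeb, Snail and Twist family factors bind E-box sequences in epithelial genes such as Cdh1, the gene of E-cadherin, and repress them, while vimentin, N-cadherin and matrix genes come on. The same factors and vimentin are expressed constitutively by fibroblasts, endothelium and other stroma, so their signal in sorted tumour cells is commonly read beside stromal markers. Rbms3 belongs to a small family of single-strand nucleic acid binding proteins and is known in hepatic stellate cells, the fibroblast-like cells of the liver, for binding the transcript of the mesenchymal homeobox factor Prrx1.

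The sorted genes themselves followed their labels. Averaged over Lgr5 states, the Mex3a probe sets were 0.69 and 0.34 higher on the log2 scale in Mex3a+ cells, and averaged over Mex3a states the Lgr5 probe sets were 1.55 and 1.24 higher in Lgr5+ cells. The sorts were not independent in Lgr5 signal, since the same Lgr5 probe sets were also 0.82 and 0.61 higher in Mex3a+ cells. The epithelial adhesion gene Epcam read between 11.44 and 11.77 log2 on the 12 arrays, so every population carried epithelial RNA. The Mex3a- Lgr5+ array of MKL367 stood apart from the other 11 by high signal of collagen genes, and the members' values on it are given beside the stromal markers. A probe set was tested if it exceeded 4.40 log2, the 40th percentile of all values, on at least 3 arrays, which 28365 of the 45037 probe sets that are no Affymetrix control did. It was called at a Benjamini-Hochberg adjusted p under 0.05 in limma over all of these. Of the 18 member probe sets, 7 passed the filter, namely all 3 of Vim, 3 of 4 of Rbms3 and the 1 of Twist2, and 11 did not. Just inside the filter was Twist2, above the level on 4 arrays, and just outside were Rbms3 1452761_PM_a_at and Zeb1 1443005_PM_at, each above it on 1 array.

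**Figure D1:**
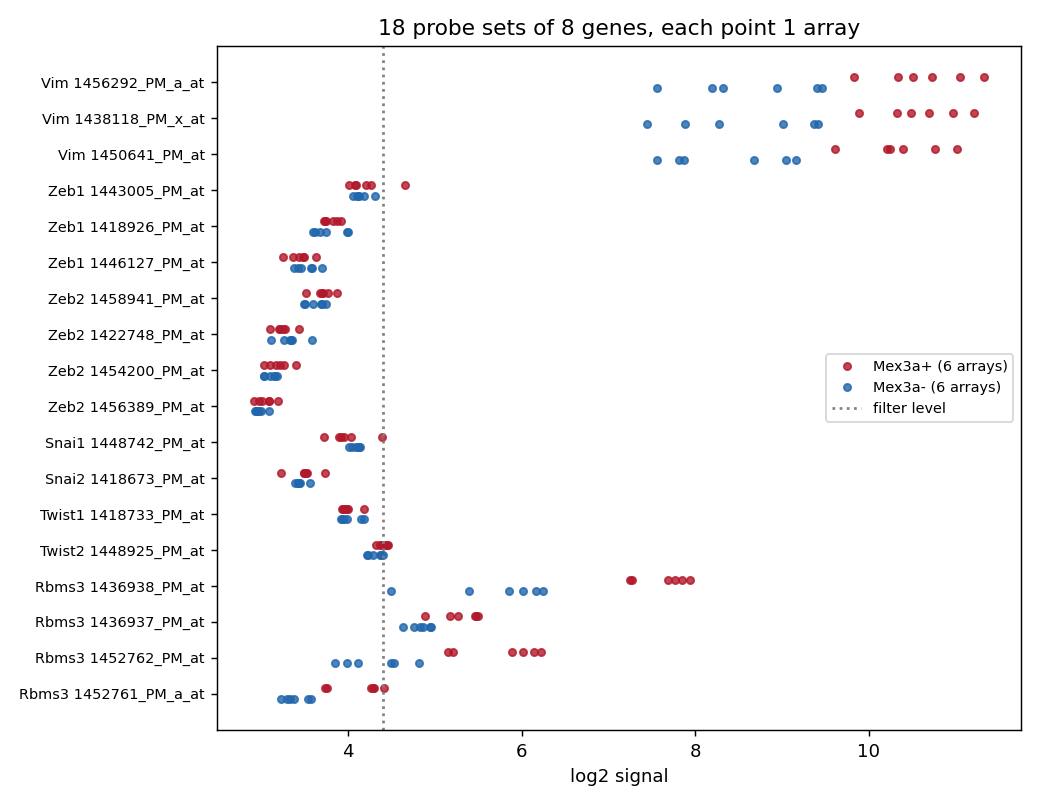
Log2 signal (horizontal axis) of the 18 probe sets of the 8 genes, 1 point per array, with the 6 Mex3a+ arrays in red above the 6 Mex3a- arrays in blue and the filter level of 4.40 as a dotted line. The 3 Vim probe sets and 3 of the 4 Rbms3 probe sets are separated by Mex3a status, a separation found in this direction in 3.4% of all 45037 probe sets that are no control. The 11 probe sets of the Zeb, Snail and Twist factors lie at or under the filter level, with 5 of their 132 values above it.

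Vim lies on chromosome 2 (13574311 to 13582826 in GRCm38.p6) and Rbms3 on chromosome 9 (116572746 to 117629913). The RefSeq promoter table held 1 start for Vim and 2 for Rbms3. The 250 bases before the Vim start and before the distal Rbms3 start are shown because these 2 genes are the members whose signal moved together. Both strands were searched for the TATA box (TATAAA), the Tcf/Lef core (CTTTGA), the E-box of Zeb and Snail factors (CAGGTG) and the AP-1 site (TGANTCA), and matches are in capitals.
Vim, chr2:13574061-13574310, plus strand: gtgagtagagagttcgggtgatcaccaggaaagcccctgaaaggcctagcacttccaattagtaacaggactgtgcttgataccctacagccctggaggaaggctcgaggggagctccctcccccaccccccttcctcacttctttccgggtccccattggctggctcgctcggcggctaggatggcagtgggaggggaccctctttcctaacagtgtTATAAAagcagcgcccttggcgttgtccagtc
Rbms3 distal start, chr9:117629914-117630163, minus strand: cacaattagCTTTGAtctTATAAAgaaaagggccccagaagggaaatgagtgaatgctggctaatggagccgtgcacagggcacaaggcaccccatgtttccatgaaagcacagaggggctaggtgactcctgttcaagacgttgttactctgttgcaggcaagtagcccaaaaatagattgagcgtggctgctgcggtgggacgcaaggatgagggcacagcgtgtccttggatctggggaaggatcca
The Vim window held 1 TATA box, starting at position -32 from the gene start, and no other match. The distal Rbms3 window held a Tcf/Lef core at -241 and a TATA box at -232, and the proximal one (chr9:117252484-117252733) held no match to any of the 4. Over the 32851 mouse promoters of the table, windows of the same length held TATAAA in 12.4%, CTTTGA in 13.8%, CAGGTG in 17.2% and TGANTCA in 6.75% of cases. These matches are letters in a window and say nothing about binding.

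Vim signal was on average about 4-fold higher in Mex3a+ than in Mex3a- adenoma cells, and it was higher in every mouse and in both Lgr5 states. Probe set 1456292_PM_a_at read 11.33, 10.34 and 11.05 log2 in Mex3a+ Lgr5+ cells of MKL347, MKL358 and MKL367, and 10.73, 9.84 and 10.51 in Mex3a+ Lgr5- cells. It read 9.47, 8.20 and 9.41 in Mex3a- Lgr5+ cells and 8.32, 7.56 and 8.94 in Mex3a- Lgr5- cells of the same mice. Averaged over Lgr5 states, the log2 difference by Mex3a status was 2.13 in MKL347, 2.21 in MKL358 and 1.61 in MKL367. The lowest of the 6 Mex3a+ arrays lay above the highest of the 6 Mex3a- arrays. The mean was 10.63 ± 0.53 in Mex3a+ and 8.65 ± 0.75 in Mex3a- cells (SD, n = 6 arrays of 3 mice each), a log2 difference of 1.98 (SE 0.29), which is a 3.96-fold ratio of signals. With the mouse as a block the SE was 0.10.

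The other Vim probe sets gave the same picture. By 1450641_PM_at, Vim was 10.37 ± 0.49 in Mex3a+ and 8.36 ± 0.69 in Mex3a- cells (SD, n = 6 arrays each), a log2 difference of 2.02 (SE 0.26). By 1438118_PM_x_at it was 10.59 ± 0.47 in Mex3a+ and 8.57 ± 0.82 in Mex3a- cells (SD, n = 6 arrays each), a log2 difference of 2.03 (SE 0.32). An x in an Affymetrix name marks a probe set with some probes that match other transcripts as well, and the 3 probe sets may overlap in the transcript, so they are not 3 independent measurements. On none of the 3 did the Mex3a+ and Mex3a- arrays overlap, and 4.5% of the 28365 tested probe sets had all Mex3a+ arrays above all Mex3a- arrays. Nothing is read from that share, since the members were chosen with these values known.

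Within Lgr5+ cells, the Vim log2 difference between Mex3a+ and Mex3a- was 1.88 (SE 0.41), 1.94 (SE 0.45) and 1.98 (SE 0.37) by 1456292_PM_a_at, 1438118_PM_x_at and 1450641_PM_at. Within Lgr5- cells it was 2.09 (SE 0.41), 2.11 (SE 0.45) and 2.05 (SE 0.37) by the same probe sets. For Vim the interaction, the difference between these effects, lay between -0.20 and -0.07 with standard errors of 0.52 to 0.63. With the mouse as a block these were 0.20 to 0.26. In neither fit was the interaction called for any of the 7 tested member probe sets. It was called for none of the 28365 probe sets either, of which 751 had an unadjusted p under 0.05 in the fit without the mouse. Both effects in Vim thus had the same sign and a size that these arrays did not separate.

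Vim was also higher in Lgr5+ than in Lgr5- cells in each of the 3 mice and in both Mex3a states, by a smaller amount. The log2 difference averaged over Mex3a states was 0.65 (SE 0.29) by 1456292_PM_a_at, 0.64 (SE 0.26) by 1450641_PM_at and 0.56 (SE 0.32) by 1438118_PM_x_at. None was called in the fit without the mouse, with limma adjusted p-values of 0.85, 0.80 and 0.94. With the mouse as a block, which removes the level that the 4 arrays of a mouse share, the limma adjusted p was 0.0097 for 1456292_PM_a_at, 0.031 for 1450641_PM_at and 0.060 for 1438118_PM_x_at, so that 2 of the 3 were called. Leaving out each mouse or array in turn with the block kept, 1456292_PM_a_at was called in 13 of 15 fits, 1450641_PM_at in 6 and 1438118_PM_x_at in 3. By each probe set and in each mouse, Vim was therefore highest in double-positive cells, followed by Mex3a single-positive, Lgr5 single-positive and double-negative cells. Ranges overlapped between the 2 Mex3a+ populations and between the 2 Mex3a- populations, and not between Mex3a+ Lgr5- and Mex3a- Lgr5+ cells. MKL358, the mouse with 500-cell pools, was the lowest of the 3 in every population by each Vim probe set, and mouse and pool size cannot be told apart.

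**Figure D2:**
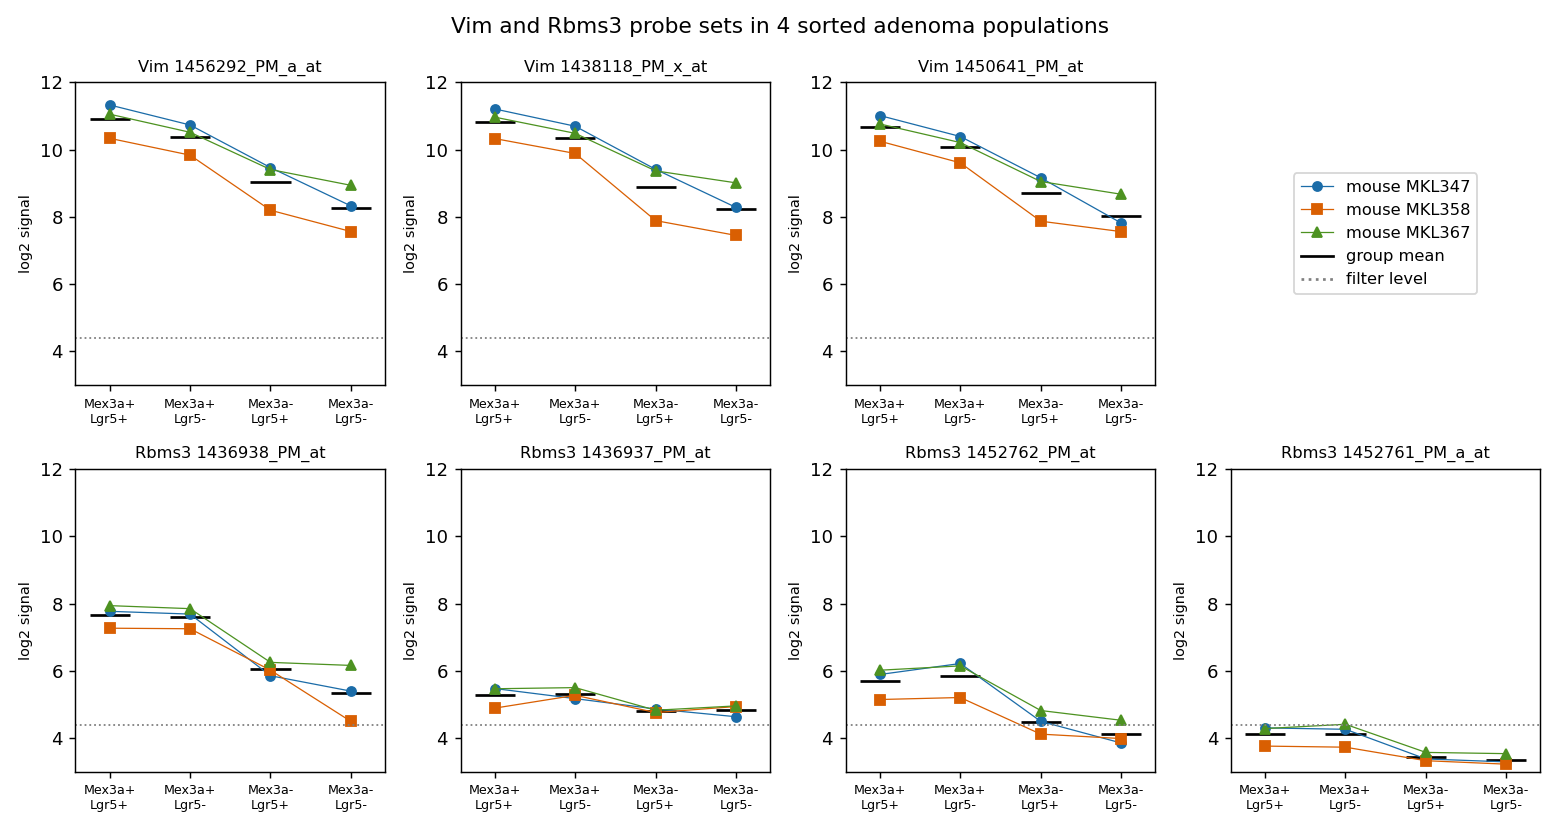
Log2 signal (vertical axis) of the 3 Vim probe sets (top) and the 4 Rbms3 probe sets (bottom) in the 4 sorted populations, with arrays of a mouse joined, the group mean as a black bar and the filter level dotted. Vim 1456292_PM_a_at averaged 10.91 in Mex3a+ Lgr5+, 10.36 in Mex3a+ Lgr5-, 9.02 in Mex3a- Lgr5+ and 8.28 in Mex3a- Lgr5- cells, and Rbms3 1436938_PM_at averaged 7.66, 7.60, 6.04 and 5.35 in the same populations.

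Rbms3 was higher in Mex3a+ cells as well, by an amount that depended on the probe set. The brightest probe set, 1436938_PM_at, read 7.77, 7.27 and 7.94 log2 in Mex3a+ Lgr5+ cells of MKL347, MKL358 and MKL367, and 7.69, 7.25 and 7.85 in Mex3a+ Lgr5- cells. In Mex3a- Lgr5+ cells it read 5.86, 6.02 and 6.25, and in Mex3a- Lgr5- cells 5.40, 4.50 and 6.16. The 2 Mex3a+ populations were nearly level with each other, and all 6 of their arrays lay above the 6 Mex3a- arrays. The log2 difference by Mex3a status was 1.93 (SE 0.24), a 3.81-fold ratio, between 7.63 ± 0.30 in Mex3a+ and 5.70 ± 0.66 in Mex3a- cells (SD, n = 6 arrays each).

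Probe set 1452762_PM_at of Rbms3 gave a log2 difference of 1.47 (SE 0.22), again without overlap. It read 5.89, 5.15 and 6.02 in Mex3a+ Lgr5+ and 6.22, 5.21 and 6.15 in Mex3a+ Lgr5- cells, against 4.50, 4.12 and 4.82 in Mex3a- Lgr5+ and 3.86, 3.99 and 4.53 in Mex3a- Lgr5- cells. It exceeded the filter level on 9 arrays, so its Mex3a- values are partly under that level. Probe set 1436937_PM_at gave a log2 difference of 0.47 (SE 0.11), from 5.30 ± 0.24 in Mex3a+ and 4.83 ± 0.12 in Mex3a- cells (SD, n = 6 arrays each). Its ranges overlapped, since the Mex3a+ Lgr5+ array of MKL358 read 4.89 and the Mex3a- arrays reached 4.96. The fourth probe set, 1452761_PM_a_at, lay between 3.23 and 4.41, did not pass the filter and was not tested. Its Mex3a+ arrays were nonetheless all above its Mex3a- arrays, by 0.74 on average.

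By Lgr5 status, the Rbms3 log2 differences averaged 0.38 (SE 0.24), -0.03 (SE 0.11) and 0.09 (SE 0.22) by 1436938_PM_at, 1436937_PM_at and 1452762_PM_at, and none was called with or without the mouse as a block. In Mex3a- cells, 1436938_PM_at was 0.69 (SE 0.34) higher with Lgr5, of which MKL358 gave most (6.02 in Lgr5+ and 4.50 in Lgr5- cells). In Mex3a+ cells the difference was 0.06 (SE 0.34).

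**Figure D3:**
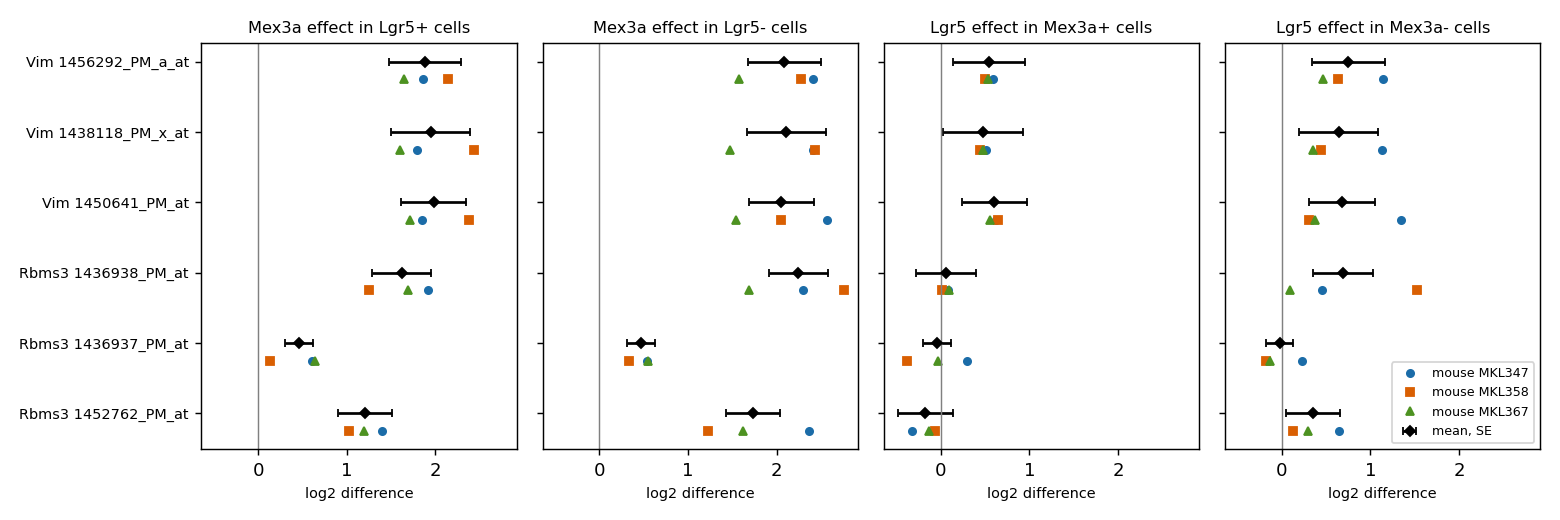
Log2 differences (horizontal axis) of the Vim and Rbms3 probe sets that passed the filter, for Mex3a+ minus Mex3a- within each Lgr5 state and Lgr5+ minus Lgr5- within each Mex3a state. Diamonds are fitted means with their standard error, and coloured symbols under them are the 3 mice. All Mex3a differences are above 0 in each mouse, Vim differences by Lgr5 are above 0 in each mouse, and those of Rbms3 by Lgr5 lie on both sides of 0.

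The transcription factors gave no such difference. Zeb1 and Zeb2 are zinc-finger homeobox repressors of Cdh1, and their 7 probe sets stayed under 4.40 log2 on every array except 1, the Mex3a+ Lgr5- array of MKL358 with 4.66 by Zeb1 1443005_PM_at. That probe set averaged 4.15 ± 0.10 in Mex3a+ Lgr5+, 4.30 ± 0.33 in Mex3a+ Lgr5-, 4.12 ± 0.06 in Mex3a- Lgr5+ and 4.18 ± 0.12 in Mex3a- Lgr5- cells (SD, n = 3 each). The brightest of Zeb2, 1458941_PM_at, averaged 3.70 ± 0.02, 3.72 ± 0.18, 3.61 ± 0.13 and 3.63 ± 0.11 in the same populations. The 4 ranges of these probe sets overlapped. Of the other Zeb probe sets, all under the filter level, Zeb1 1418926_PM_at read 3.73 to 3.74 in Mex3a+ Lgr5+ and 3.83 to 3.92 in Mex3a+ Lgr5- cells, and Zeb2 1422748_PM_at read 3.12 to 3.33 in Mex3a- Lgr5+ and 3.34 to 3.58 in Mex3a- Lgr5- cells, ranges that did not overlap. Each was the only 1 of the 18 member probe sets without overlap by Lgr5 status in that Mex3a state. How many of all probe sets show such a gap between groups of 3 arrays was not counted. Neither was tested, and nothing is read from these gaps. By Mex3a status, no Zeb probe set separated the arrays.

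Snai1 and Snai2 encode the zinc-finger repressors Snail and Slug. Snai1 (1448742_PM_at) read 3.73, 4.04 and 3.96 in Mex3a+ Lgr5+ and 3.92, 4.39 and 3.90 in Mex3a+ Lgr5- cells, against 4.01, 4.13 and 4.11 in Mex3a- Lgr5+ and 4.04, 4.09 and 4.14 in Mex3a- Lgr5- cells. Snai2 (1418673_PM_at) read between 3.23 and 3.74 on the Mex3a+ arrays and between 3.39 and 3.56 on the Mex3a- arrays. By Mex3a status or by Lgr5 status, neither gene separated the arrays. Between single populations, Snai1 reached 4.038 in Mex3a+ Lgr5+ cells and was at least 4.045 in Mex3a- Lgr5- cells. Snai2 reached 3.43 in Mex3a- Lgr5+ cells and was at least 3.49 in Mex3a+ Lgr5- cells. These values are under the filter level and were not tested, and nothing is read from the gaps.

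Twist1 and Twist2 are basic helix-loop-helix factors that pair with E proteins. Twist1 (1418733_PM_at) read between 3.94 and 4.18 on the Mex3a+ arrays and between 3.92 and 4.19 on the Mex3a- arrays. Twist2 (1448925_PM_at) read 4.33, 4.45 and 4.42 in Mex3a+ Lgr5+ and 4.37, 4.38 and 4.47 in Mex3a+ Lgr5- cells, against 4.23, 4.38 and 4.22 in Mex3a- Lgr5+ and 4.29, 4.37 and 4.41 in Mex3a- Lgr5- cells. Its log2 difference by Mex3a status was 0.09 (SE 0.06) and was not called. Over the 11 factor probe sets, differences by Mex3a status ran from -0.10 to 0.09 and by Lgr5 status between -0.12 and 0.07. The arrays hold no spike of known amount for these genes, so a value under the filter level was read as low signal and not as absence. That level is a percentile and no detection limit. Rbms3 1452761_PM_a_at, above it on 1 array, still separated the arrays by Mex3a status.

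Counted over the tested members, 6 of 7 probe sets were called higher in Mex3a+ cells averaged over Lgr5 states, namely the 3 of Vim and 3 of Rbms3, and 0 lower. Of all 28365 tested probe sets, 9.95% were called higher in that comparison, 16.7% with the mouse as a block (again 6 members) and 6.71% of 45037 with no filter (7 members), and since the members were chosen with it known, nothing is read from their count. Within Lgr5+ cells 5 of 7 were called higher, beside 2.56% of all tested, and 6 with the mouse as a block, beside 8.67%. Within Lgr5- cells 5 of 7 were called higher, beside 5.23%, and 6 with the block, beside 11.6%. The count within Lgr5+ cells fell to 0 without MKL347, without MKL367, or without the Mex3a+ Lgr5+ array of either mouse. It fell to 1 without the Mex3a- Lgr5+ array of MKL347 or of MKL358, and was 4 without that of MKL367. Calls over all tested probe sets fell as well, from 727 higher to 2 without MKL347 and 81 without MKL367. They were 130 and 151 without the Mex3a+ Lgr5+ array of MKL347 and of MKL367. Without the Mex3a- Lgr5+ array of MKL347, MKL358 and MKL367 they were 139, 188 and 394. The member count within Lgr5- cells fell to 0 without MKL347, where calls over all fell from 1484 higher to 29.

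By Lgr5 status the counts were small. No member was called averaged over Mex3a states, where 0.0247% of all tested probe sets were called higher. There 2 of 7 had an unadjusted limma p under 0.05, beside 1659 of all 28365 in either direction. With the block 2 of 7 (both of Vim) were called, beside 0.938%. Within Mex3a+ cells limma called 0 of 7, beside 0% of all tested, and 0 of 7 had an unadjusted p under 0.05, beside 750 of all 28365. Within Mex3a- cells 0 of 7 were called, beside 0.0176%, with 0 at an unadjusted limma p under 0.05, beside 1650 of all 28365. With the block 1 of 7 was called (Vim 1456292_PM_a_at, limma adjusted p 0.027), beside 0.702%.

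Whether stromal RNA moved with Vim and Rbms3 was asked with lists of cell type markers, taken at the highest-mean probe set of each gene. Of all 12595 genes tested in this way, 9.91% were called higher and 17.3% lower in Mex3a+ cells. Of 30 fibroblast and smooth muscle genes on the array, 11 were under the filter level on all 12 arrays, among them Pdgfra, Lum, Col1a2, Fap, Postn and Dpt. Pdgfra, Lum and Col1a2 read 3.66, 3.56 and 3.78 even on the Mex3a- Lgr5+ array of MKL367, where Col1a1 read 8.70. Low signal of these probe sets is therefore no measure of low fibroblast RNA. Of the 16 tested, 2 were called higher, 0 lower, and the median log2 difference was 0.01. The list's mean log2 signal was 4.81 to 4.87 in Mex3a+ Lgr5+, 4.80 to 4.90 in Mex3a+ Lgr5-, 4.70 to 5.38 in Mex3a- Lgr5+ and 4.71 to 4.87 in Mex3a- Lgr5- cells, and these ranges overlapped between Mex3a+ and Mex3a- cells.

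The 2 fibroblast genes called higher were Mgp, the matrix Gla protein (log2 difference 0.90, SE 0.29), and Fbln1, the matrix protein fibulin 1 (0.29, SE 0.09). Mgp averaged 9.86 in Mex3a+ and 8.96 in Mex3a- cells, and Fbln1 10.07 and 9.78. Fbln1 was not called without the Mex3a- Lgr5+ array of MKL367 or after median centring, and neither gene was called without MKL358. These 2 genes made up between 45.4% and 76.4% of the list's summed signal on each array. The sum was 2832 to 3187 in Mex3a+ Lgr5+, 2640 to 3215 in Mex3a+ Lgr5-, 2233 to 3691 in Mex3a- Lgr5+ and 1971 to 2209 in Mex3a- Lgr5- cells on the linear scale. Without them it was 754 to 918, 807 to 862, 738 to 2016 and 713 to 896 in the same populations. The upper ends of the Mex3a- Lgr5+ ranges come from the array of MKL367, without which they were 2335 with both genes and 770 without them. All Mex3a+ sums with both genes then lay above all Mex3a- sums, as Vim did, while the sums without them overlapped. The part of either gene in the Vim result was not tested.

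A single array stood apart in fibroblast genes, the Mex3a- Lgr5+ array of MKL367. There Col3a1, a fibrillar collagen chain, read 9.34, against 4.70 to 6.86 on the other 11 arrays, and Dcn, the matrix proteoglycan decorin, 7.25, against 4.60 to 4.88. Col1a1 read 8.70, against 6.14 to 6.74, and Sparc 9.37, against 5.10 to 7.42. Vim 1456292_PM_a_at read 9.41 on that array, below all 6 Mex3a+ arrays and beside 9.47 and 8.20 in the same population of MKL347 and MKL358, and Rbms3 1436938_PM_at read 6.25 beside 5.86 and 6.02. Among the 6 Mex3a- arrays it was the highest for Rbms3 1436938_PM_at, 1452762_PM_at (4.82) and 1452761_PM_a_at (3.58), and next to the highest for each Vim probe set. Zeb1 1443005_PM_at read 4.13 there, Zeb2 1458941_PM_at 3.60, Snai2 3.39 and Twist1 3.95, all under the filter level. Without that array, the median log2 difference by Mex3a status over the 30 fibroblast genes was 0.06, against 0.00 with it, while that of Vim 1456292_PM_a_at stayed between 1.78 and 2.17 over all left-out arrays and mice.

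**Figure D4:**
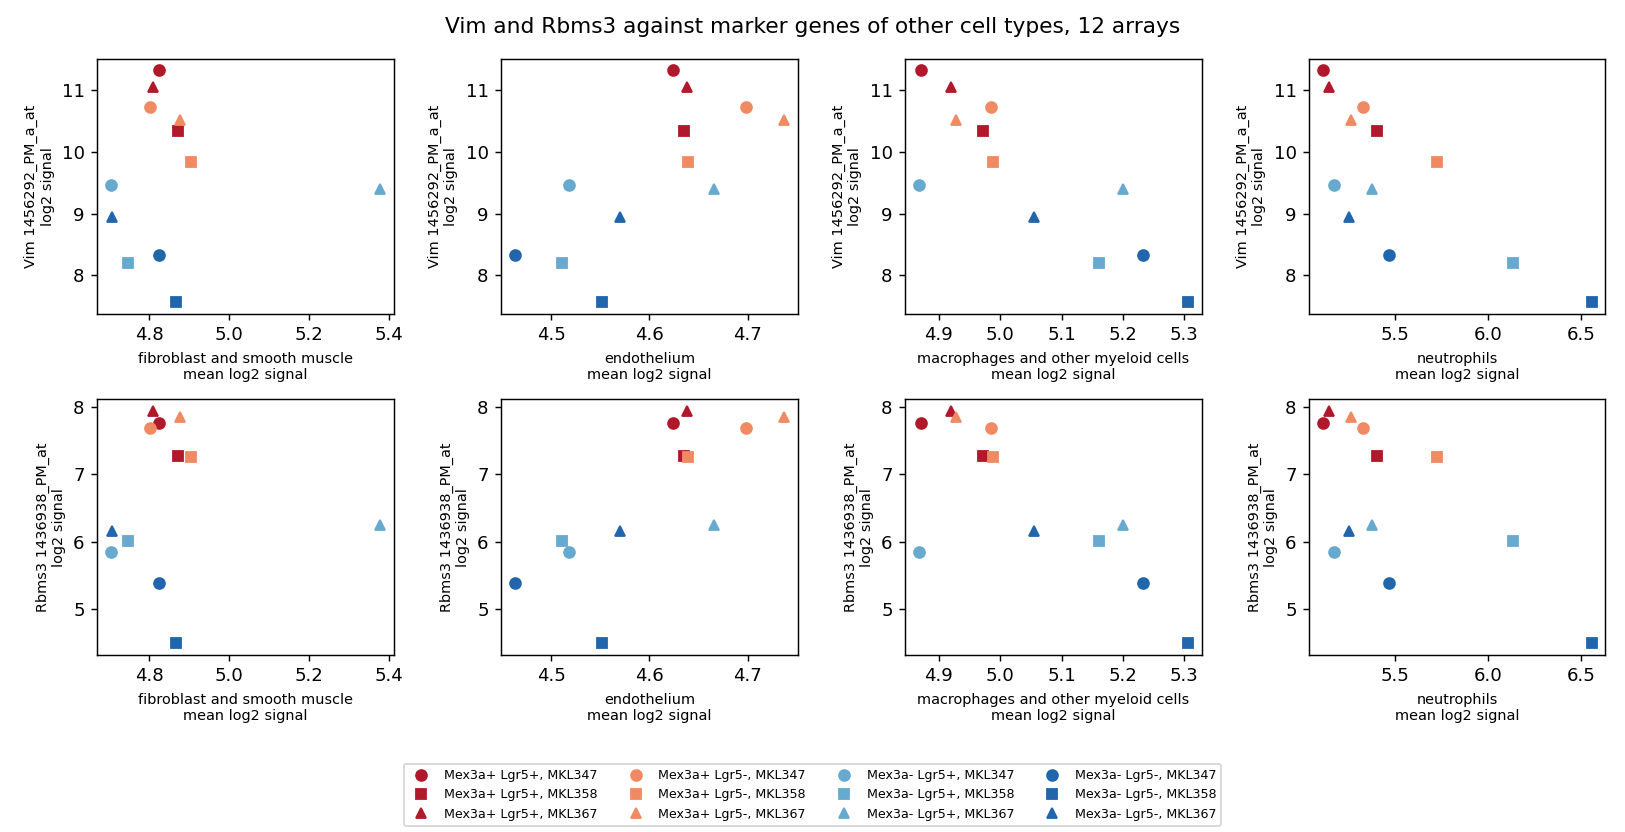
Log2 signal of Vim 1456292_PM_a_at (top) and Rbms3 1436938_PM_at (bottom) on the vertical axes against the mean log2 signal of 4 marker lists on the horizontal axes, 1 point per array, coloured by population and shaped by mouse. The Mex3a- Lgr5+ array of MKL367 lies far right in fibroblast genes at 5.38, with Vim at 9.41 and Rbms3 at 6.25, both below the 6 Mex3a+ arrays, and the neutrophil list is highest on the 2 Mex3a- arrays of MKL358.

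Endothelial markers were mostly level. Of 17 tested, 1 was called higher in Mex3a+ cells (Flt1, a VEGF receptor, log2 difference 1.08, SE 0.19) and 1 lower (Egfl7, -0.26, SE 0.07), with a median of 0.08. The defining endothelial genes Pecam1 and Cdh5 read between 4.36 and 4.99 and between 3.98 and 5.02 over the 12 arrays. The list's mean was 4.62 to 4.64 in Mex3a+ Lgr5+, 4.64 to 4.74 in Mex3a+ Lgr5-, 4.51 to 4.67 in Mex3a- Lgr5+ and 4.46 to 4.57 in Mex3a- Lgr5- cells, a small shift in the direction of Vim whose part was not tested.

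Leukocyte markers were mostly level or lower in Mex3a+ cells. Of 12 tested genes of macrophages and other myeloid cells, 3 were called lower in Mex3a+ cells, namely Cd14 (log2 difference -1.02, SE 0.14), Tyrobp (-0.84, SE 0.26) and Fcer1g (-0.42, SE 0.14), and 0 higher. Without MKL358, or without the Mex3a- Lgr5+ array of MKL367, 1 was called lower. Ptprc, the pan-leukocyte gene of CD45, and Adgre1, a macrophage marker, were under the filter level on all 12 arrays. Of 9 neutrophil and 8 lymphocyte genes tested, 0 were called in either direction in limma's fit and 0 had an unadjusted p under 0.05. In the fit blocked by mouse, 1 neutrophil gene was called higher and 3 lower, and after quantile normalization 1 was called higher. The neutrophil gene S100a8 read 7.50 and 8.29 on the Mex3a- Lgr5+ and Mex3a- Lgr5- arrays of MKL358 and at most 6.42 on the others, and those are the arrays on which Vim was lowest in each population. Of 4 genes of enteric glia and neurons, Uchl1 was called higher (0.74, SE 0.15) and the receptor gene Ret lower (-0.72, SE 0.08). Uchl1 exceeded the filter level on 5 arrays and averaged 4.96 in Mex3a+ and 4.22 in Mex3a- cells, the latter under that level.

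The other genes of the programme were described from lists taken from general knowledge. Of 20 mesenchymal genes listed, 16 were on the array and 8 were tested. Of these 5 were called higher in Mex3a+ cells and 0 lower, with a median log2 difference of 0.44, against 0.15 over all 16 on the array. Ltbp1, which binds latent TGF-beta in the matrix, was 6.87 in Mex3a+ and 4.75 in Mex3a- cells, a log2 difference of 2.13 (SE 0.28). Tcf4, the E protein E2-2 and not the Wnt effector of that name, was 8.96 in Mex3a+ and 7.93 in Mex3a- cells (1.03, SE 0.16). Mmp14, a membrane-bound matrix protease, was 0.35 higher (SE 0.09), and Prrx1 0.22 higher (SE 0.07), the last near the filter level with values of 4.04 to 4.61 and not called after quantile normalization, without MKL358 or without the Mex3a- Lgr5+ array of MKL367. Foxc2, the other gene called higher, exceeded the filter level on 7 arrays. It averaged 4.87 in Mex3a+ and 4.18 in Mex3a- cells, the latter under that level. Of the tested genes not called, Fn1 and Tgfbi differed by 0.48 (SE 0.17) and 0.41 (SE 0.22), and Sparc by -0.52 (SE 0.62). The list's mean log2 signal was 5.29 to 5.38 in Mex3a+ Lgr5+ and 5.23 to 5.37 in Mex3a+ Lgr5- cells. In Mex3a- Lgr5- cells it was 4.83 to 4.93, and in Mex3a- Lgr5+ cells 4.86 to 5.47, the highest on the array of MKL367. Without that array 5 genes were again called higher and 0 lower. Cdh2, the gene of N-cadherin, was under the filter level on all 12 arrays, as were Lox, Itga5, Cdh11 and Wnt5a.

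Of 20 tested genes of the epithelial programme, 8 were called lower in Mex3a+ cells and 1 higher, with a median log2 difference of -0.15. Ovol2, which represses Zeb1, was 5.27 in Mex3a+ and 5.98 in Mex3a- cells, a log2 difference of -0.71 (SE 0.07). The splicing factor Esrp1 differed by -0.45 (SE 0.07), the vesicle protein gene Rab25 by -0.36 (SE 0.06) and the tight junction gene Cldn7 by -0.28 (SE 0.05). The single gene called higher was another claudin, Cldn4 (0.49, SE 0.12), named after its values were seen. Cdh1 was lower as well, with 8.86 to 9.22 on the Mex3a+ and 9.12 to 9.67 on the Mex3a- arrays (log2 difference -0.37, SE 0.11), and Epcam differed by -0.16 (SE 0.04). Among 12 general epithelial genes 10 were called lower in Mex3a+ cells, with a median of -0.35 against -0.01 over all 12595 tested genes. They included the microvillus gene Vil1 (-1.06, SE 0.11) and the intestinal identity factor gene Cdx2 (-1.11, SE 0.17). The general list's mean log2 signal was 9.93 to 10.24 on the Mex3a+ and 10.41 to 10.72 on the Mex3a- arrays.

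**Figure D5:**
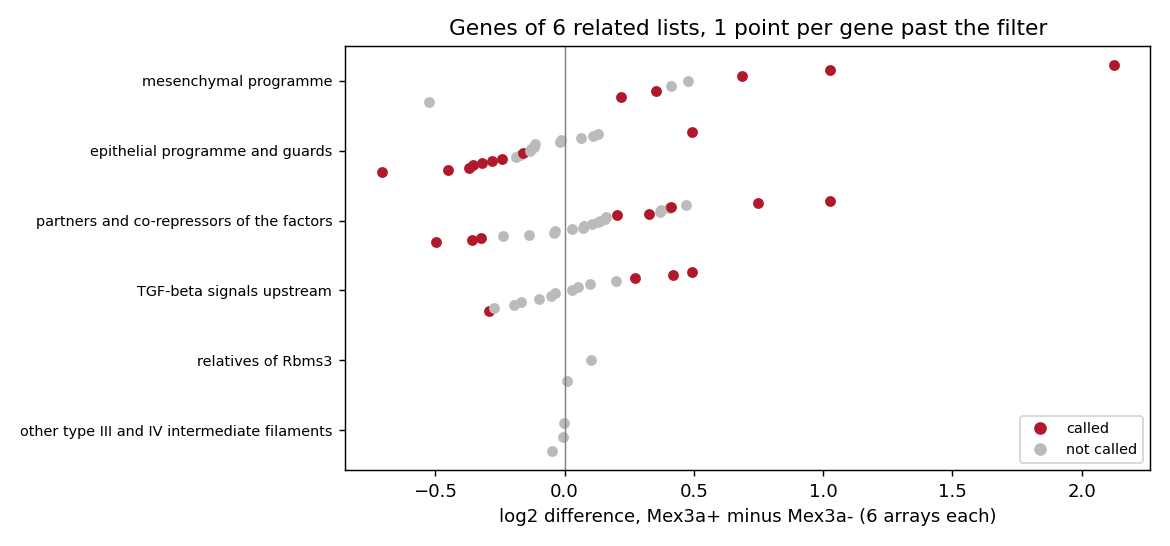
Log2 differences between Mex3a+ and Mex3a- cells (horizontal axis, positive is higher in Mex3a+) of the tested genes of 6 lists, 1 point per gene, red where called. The mesenchymal list reaches 2.13 at Ltbp1 with 5 called genes above 0, and the epithelial list has 8 called genes below 0 and Cldn4 at 0.49 above it.

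Genes that act with the factors moved in both directions. Of 24 tested partners and co-repressors, 5 were called higher in Mex3a+ cells and 3 lower, with a median of 0.13, after quantile normalization 10 higher and 1 lower, and with the mouse as a block 9 higher and 3 lower. The E protein Tcf12, a partner of Twist proteins, was 0.75 higher (SE 0.10), as was the second E protein Tcf4 given above. Kdm1a, the histone demethylase LSD1 that Snail recruits, was 0.33 higher (SE 0.04), and Ctbp2, a co-repressor bound by Zeb proteins, was 0.32 lower (log2 difference -0.32, SE 0.06). Of 14 genes of TGF-beta signalling, 3 were called higher and 1 lower, with a median near 0. The Smad co-repressor Tgif1 was 0.49 higher (SE 0.07), the ligand Tgfb3 0.42 higher (SE 0.11), the inhibitory Smad7 0.27 higher (SE 0.09), and the common mediator Smad4 differed by -0.29 (SE 0.07). Tgfb3 exceeded the filter level on 5 arrays and averaged 4.46 in Mex3a+ and 4.05 in Mex3a- cells, the latter under that level. Smad7 was not called after either rescaling or without the Mex3a- Lgr5+ array of MKL367, and neither Smad7 nor Smad4 was called without MKL358.

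Relatives of the members did not follow them past the test. Rbms1 differed by 0.01 (SE 0.06) and Rbms2 by 0.10 (SE 0.07) between Mex3a+ and Mex3a- cells. Among 3 tested genes of the list of other type III and IV intermediate filaments, Des, Synm and Sync differed by 0.00 (SE 0.08), 0.00 (SE 0.08) and -0.05 (SE 0.09). By Lgr5 status, averaged over Mex3a states, no gene of any of the 13 lists was called in limma's fit without the mouse, and 15 of the 143 tested had an unadjusted p under 0.05.

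The genes whose signal was most like that of Vim over the 12 arrays were Pdgfrl (Pearson r 0.987), Kdm1a (0.985), Fam89a (0.985), Syt11 (0.982) and Ttc3 (0.981), out of 11822 genes. The r of Vim with Rbms3 was 0.944, and 106 genes had a higher one with Vim. Pdgfrl averaged 9.11 in Mex3a+ Lgr5+, 8.74 in Mex3a+ Lgr5-, 7.53 in Mex3a- Lgr5+ and 7.14 in Mex3a- Lgr5- cells. Its order over the populations was that of Vim. Closest to Rbms3 were Slc30a2 (0.981), Dnmt3a (0.980) and Rabgap1 (0.980), and closest to Twist2 were Ccdc63 (0.875), Syn3 (0.846) and Foxl1 (0.837). The 12 points share 3 mice and 4 populations, so these coefficients describe the likeness of patterns over groups and are given without a test.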

How the data were processed

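Sorted adenoma cells were profiled on 12 Affymetrix mouse arrays, with 25 ng of total RNA amplified and 8 µg of cDNA labelled, per the labels' protocols. The authors deposited log2 signals, which the submitters' processing notes credit to RMA without a version or options, and these were used unchanged. Array medians were 4.86 to 4.92. The number of arrays limits the precision. GEO's platform annotation gave 1 gene symbol to 28898 probe sets, several to 551 and none to 15588.

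Group means were fitted with limma 3.58.1 in R 4.3.3 on all 12 arrays (eBayes with an intensity trend, 2-sided, Benjamini-Hochberg over 28365 probe sets, called at an adjusted p under 0.05). For gene lists the highest-mean probe set of each of 12595 genes was fitted in the same way. The fit was tested on simulated data. The labels give the mouse of each array, which pairs the populations: deviations from group means correlated at 0.34 to 0.68 over the 18 same-mouse pairs and at -0.70 to 0.15 over the 48 other pairs. Centring on the group mean itself lowers the correlation between arrays of a group, so the low end of the second range is no measure of pairing. The mouse as a block, other filters, rescaling, 1 probe set per gene and left-out mice or arrays were alternatives. Standard errors are those of the fit without the mouse unless the block is named.

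Members and lists were chosen with earlier results of these data known. Every member probe set is described. Of each pathway list the 4 genes with the smallest p by Mex3a status were named, and for likeness the 3 genes (5 for Vim) of highest Pearson r, leaving out clones and gene models. Promoters and positions are RefSeq's on GRCm38.p6. The files give no probe positions. Python 3.11.15 with matplotlib 3.10.9 drew the figures.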

Additional observations from a re-analysis of the deposited data

Results flagged for a closer look

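Rbms3 1452762_PM_at differed in opposite directions by Lgr5 status in the 2 Mex3a states. It was lower in Lgr5+ than in Lgr5- cells of all 3 mice among Mex3a+ cells, with a mean log2 difference of -0.17, and higher in all 3 mice among Mex3a- cells, with 0.36. The interaction was -0.53, with an SE of 0.43 without the mouse and 0.23 with the mouse as a block. Limma's adjusted p for it was 0.62 with the block and above that without it. The difference between the states thus did not pass the test. The other Rbms3 probe sets did not split by sign in this way. The interaction was also below 0 in all 3 mice for 1436938_PM_at (-0.63, with -0.00046 in MKL367) and for the untested 1452761_PM_a_at (-0.09). For 1436937_PM_at it was -0.01 and above 0 in 2 mice. In the blocked fit 2 of 7 members had an interaction below 0 at an unadjusted limma p under 0.05. Of all 28365, 2188 had such a p in either direction.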

How the results depend on the processing

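The log2 differences of Vim and Rbms3 by Mex3a status kept their direction under every alternative run, with Vim 1456292_PM_a_at between 1.78 and 2.17 and Rbms3 1436938_PM_at between 1.72 and 2.13 averaged over Lgr5 states. The 6 members called by average Mex3a status became 2 of 3 tested with the highest-mean probe set of each gene, 7 with no filter, and 4 to 6 over left-out mice and arrays. Calls higher over all tested probe sets were 528 of 27826 without MKL347, 3004 of 27773 without MKL358 and 1131 of 27851 without MKL367. With all arrays they were 2823 of 28365. The 5 called within Lgr5+ cells and within Lgr5- cells became 2 each with the highest-mean probe set, and 0 to 6 in both over left-out mice and arrays. With the replicate block, that is paired by mouse, 6 were called in each of the 3 Mex3a comparisons, 2 by average Lgr5 status, 1 by Lgr5 status within Mex3a- cells, and 0 within Mex3a+ cells and for the interaction. Small differences changed sign over left-out mice and arrays, none of them called in the fit of all arrays. Rbms3 by average Lgr5 status ranged between -0.18 and 0.092 (1436937_PM_at) and between -0.071 and 0.23 (1452762_PM_at). Rbms3 by Lgr5 within Mex3a+ cells ranged between -0.21 and 0.15 (1436937_PM_at), between -0.11 and 0.26 (1436938_PM_at) and between -0.50 and 0.098 (1452762_PM_at), and within Mex3a- cells between -0.15 and 0.051 (1436937_PM_at). The interaction ranged between -0.62 and 0.15 (Vim 1456292_PM_a_at), between -0.66 and 0.24 (1438118_PM_x_at), between -0.48 and 0.25 (1450641_PM_at) and between -0.11 and 0.18 (Rbms3 1436937_PM_at). The cause of these changes was not tested. Over all probe sets, 2823 were called higher and 3887 lower by Mex3a status, against 3125 and 3101 after quantile normalization and 2319 and 4523 after median centring, with the median of all differences at 0.00, 0.01 and -0.03. The list counts without MKL358, without the array rich in collagen genes and after rescaling were chosen after seeing the data, as were the left-out fits with the block. Without MKL358 the fibroblast list had 0 calls, and the general epithelial list had 10 lower there as in the full fit. RMA sets no detection limit, so low probe sets such as those of Zeb, Snail and Twist factors cannot show differences below their noise. Counts of called list genes that moved by over 1.5 times with the mouse as a block were those of endothelium (2 higher against 1), the epithelial programme (2 higher against 1), the partners and co-repressors (9 higher against 5), TGF-beta signalling (2 lower against 1), general epithelium (1 higher against 0) and neutrophils (1 higher and 3 lower against 0).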
